A study of Mus musculus with 16 samples.

Results

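The dendritic cell genes described here were the rows of the count files with the symbols Flt3, Zbtb46, Xcr1, Clec9a, Cd209a, Ccr7, Ccl17, Ccl22, Fscn1 and Il12b, 10 genes of 24421 in all. The symbols were chosen by name as known markers, with the read counts of these libraries already known and no threshold on a value, so the values below describe these genes, and the number called among them was not read as a result about the list. The samples were 16 bulk RNA-seq libraries of myeloid cells from subcutaneous MC38-Ova tumours, a mouse colon adenocarcinoma line that carries ovalbumin, grown in C57BL/6 mice that carry the photoconvertible protein Kaede. Violet light turned the host cells in the tumour from green to red, so that Kaede-green cells had entered the tumour since and Kaede-red cells had stayed in it. Live cells that were CD45+, Kaede+ and CD11b+ and lacked TER119 and NK1.1 were sorted by colour 24h or 72h later, with 4 libraries each of Kaede-green cells at 24h (MG24) and 72h (MG72) and of Kaede-red cells at 24h (MR24) and 72h (MR72). All groups shared the tumour line, the label of untreated controls and a single batch label. The mice of the study were young adults. The study describes the libraries of this experiment as tumours of separate mice. Whether a green and a red library came from the same tumour was not given in the labels, and the p-values measure the spread between libraries as labelled.

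Dendritic cells take up antigen and present it to T cells. Conventional dendritic cells arise from progenitors under the growth factor Flt3 ligand, which acts through the receptor kinase Flt3, and the transcription factor Zbtb46 marks them among myeloid cells. Type 1 cells carry the chemokine receptor Xcr1 and the dead-cell receptor Clec9a and cross-present antigen to CD8+ T cells, whereas the lectin Cd209a is found on type 2 cells and on cells derived from monocytes. On maturation, dendritic cells gain the chemokine receptor Ccr7, which guides them to the draining lymph node, the chemokines Ccl17 and Ccl22, which attract T cells through Ccr4, the actin-bundling protein Fscn1 and the cytokine subunit Il12b, shared by IL-12 and IL-23. The CD11b+ gate admits macrophages, monocytes and type 2 dendritic cells, whereas type 1 dendritic cells of tissues carry little CD11b, and the submitters described the sorted cells as macrophages.

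Total counts per library were from 3216858 to 15423080. The ribosomal RNA precursor gene Rn45s took 79.0 to 93.4% of them in Kaede-green and 55.8 to 84.9% in Kaede-red libraries, which left 468092 to 912689 counts outside Rn45s in a Kaede-green and 758192 to 5472477 in a Kaede-red library. A gene with no read in a Kaede-green library could thus have had up to 0.729 to 1.67 CPM (counts per 1e6 of scaled depth) there, the level of 3 counts, against 0.0630 to 0.543 CPM in a Kaede-red library. These limits cover counting error only. The CPM are scaled by edgeR's TMM method, which is set by the bulk of the genes. Scaling by the counts outside Rn45s instead moved the median log2 fold change of all genes tested between Kaede-red and Kaede-green from 0.06 to 0.82 over both times, and turned 960 higher and 990 lower calls into 5891 higher and 233 lower ones. The mitochondrial enzyme gene Lars2 and the microRNA gene Mir6236 together took 29.2 to 51.3% of the Kaede-green counts outside Rn45s and 3.05 to 27.8% of the Kaede-red ones. Differences of single genes are therefore given on both scales where the scale turns their direction, and sums over genes with TMM scaling alone.

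Reads of Ccr7, Ccl22 and Il12b were few or absent in Kaede-green cells, with 7, 0 and 2 reads in the 8 Kaede-green libraries. The 8 Kaede-red libraries, which were deeper, had 285, 179 and 179 reads. The 7 Kaede-green reads of Ccr7 came from 3 of the 4 MG72 libraries, and its colours overlapped at 72h. At the Kaede-red level, 43.8, 27.5 and 27.5 reads of these genes would have been counted in the Kaede-green libraries. Fscn1 was the exception among the genes of mature dendritic cells, with 176 Kaede-green and 788 Kaede-red reads and some in each of the 16 libraries. Cd209a was found in 6 of 8 Kaede-green and 8 of 8 Kaede-red libraries. Flt3, Zbtb46, Xcr1, Clec9a and Ccl17 had between 13 and 90 reads in all Kaede-red libraries together and between 0 and 11 in the Kaede-green ones. In these bulk samples, fewer cells of a type and less RNA per cell cannot be told apart. Of the 10 genes, 5 passed the filter on low counts (Cd209a, Ccr7, Ccl22, Fscn1 and Il12b), and the other 5 were too sparse to be tested in the main fit. Over both times, 4 of these 5 were called at an adjusted p under 0.05 by the quasi-likelihood test of edgeR, adjusted by Benjamini and Hochberg's method over 9642 genes, where 20.2% of all genes tested were called. A gene could pass the filter through its Kaede-red libraries alone, so this count was not read further.

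**Figure D1:**
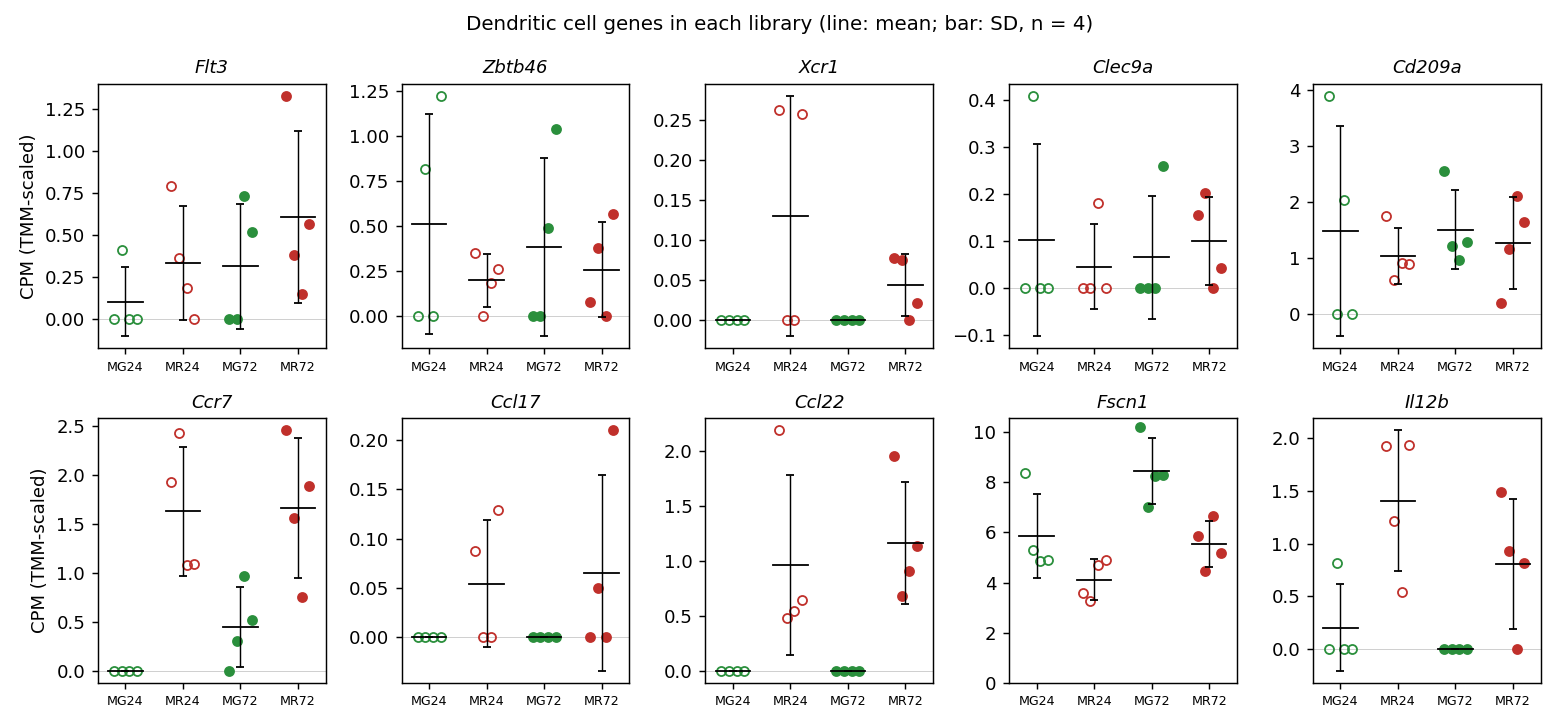
CPM (TMM-scaled) of each of the 10 dendritic cell genes in each library (points; open at 24h, filled at 72h; green for Kaede-green, red for Kaede-red), with the mean as a line and the SD of 4 libraries as a bar that can run below 0. Ccl22 sits at 0 in all 8 Kaede-green libraries and between 0.486 and 2.19 CPM in the Kaede-red ones, whereas Fscn1 has 3.28 to 10.2 CPM in every library.

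Per length, the Kaede-red libraries held most Fscn1, at 1.60 ± 0.367 CPM per kilobase of exon (mean ± SD, n = 8). Ccr7 followed at 0.834 ± 0.321, Cd209a at 0.732 ± 0.403, Il12b at 0.563 ± 0.342 and Ccl22 at 0.459 ± 0.282 CPM per kilobase, and neighbours among these 4 differed by less than the larger SD, whereas Fscn1 lay above Ccr7, and Ccl22 above Ccl17, by more than either SD. Ccl17 had 0.116 ± 0.152, Flt3 0.0760 ± 0.0690, Zbtb46 0.0266 ± 0.0236, Clec9a 0.0220 ± 0.0275 and Xcr1 0.0195 ± 0.0251 CPM per kilobase, again with neighbours that differed by less than the larger SD. In Kaede-green libraries the order began with Fscn1 at 2.37 ± 0.653 and Cd209a at 0.946 (range 0 to 2.46) CPM per kilobase, followed by Ccr7 at 0.113 ± 0.182. The genes that define dendritic cells were thus scarce in all groups. The 10 genes summed to between 6.12 and 13.6 CPM in a library, and Fscn1 alone made up 73.6% of their Kaede-green reads and 43.7% of their Kaede-red reads. Without Fscn1, the other 9 summed to 1.22 to 3.90 CPM in the Kaede-green libraries and to 3.62 to 9.28 CPM in the Kaede-red ones. A list of 7 macrophage genes (Adgre1, Csf1r, Fcgr1, Mertk, C1qa, C1qb and Lyz2) summed to 538 to 1956 CPM in the same libraries.

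Ccr7, the receptor for the lymph node chemokines Ccl19 and Ccl21, lies on chromosome 11 from 99144196 to 99155077, on the minus strand (GRCm38 with the GENCODE M21 annotation, as for all positions here). It had no read in any MG24 library, and 0, 1, 4 and 2 reads in MG72 replicates 1 to 4. The MR24 libraries had 22, 20, 6 and 17 reads, and the MR72 libraries had 63, 62, 5 and 90 reads. The groups did not overlap at 24h, where 7.07% of all genes tested had every Kaede-red above every Kaede-green library, and overlapped at 72h. In CPM, Ccr7 was 1.93, 2.43, 1.09 and 1.10 in the MR24 libraries. At 72h it was 0, 0.305, 0.972 and 0.519 CPM in the Kaede-green and 2.46, 1.56, 0.755 and 1.89 CPM in the Kaede-red libraries, so that MR72 replicate 3 lay below MG72 replicate 3. The summed reads put Ccr7 6.25-fold higher in Kaede-red cells over both times (95% exact interval 2.99 to 15.7, counting error only) and 3.68-fold higher at 72h (1.76 to 9.26). At 24h it was at least 5.65-fold higher, with the Kaede-green group set at 3 counts. Ccr7 rose in Kaede-red cells over both times with an adjusted p of 0.000406 in edgeR's fit. It also rose at 24h alone (adjusted p = 0.00538, where 7.51% of all genes were called). At 72h the log2 fold change was 1.80 (SE 0.69, adjusted p = 0.0731, where 16.8% of all genes were called), and 2.00 with an adjusted p of 0.0490 without MR72 replicate 3. It was also called at 72h with depth outside Rn45s (2.43, adjusted p = 0.00774), and with Lars2 and Mir6236 set aside too (1.99, adjusted p = 0.0379). By edgeR it was not called at 72h with RLE factors (1.75, adjusted p = 0.0829) or replicate number as a block (1.69, 0.131). With the Rn45s share added to the fit, the 72h value was 0.95 (adjusted p = 0.861). Of the 16 fits without 1 library, 1 called it, and the adjusted p reached 0.190.

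Ccl22 and Ccl17 are neighbours on chromosome 8, from 94745590 to 94751699 and from 94810453 to 94812036 on the plus strand, and encode the ligands of Ccr4. Ccl22 had no read in any of the 8 Kaede-green libraries, 25, 4, 3 and 10 reads in the MR24 libraries and 50, 27, 6 and 54 reads in the MR72 libraries. In CPM the Kaede-red values were 2.19, 0.486, 0.543 and 0.645 at 24h and 1.95, 0.679, 0.906 and 1.13 at 72h. Every Kaede-red library lay above every Kaede-green one, as for 1.19% of all genes tested (7.07% at 24h and 13.0% at 72h when each time is taken alone), and replicate 1 was the highest of its group at both times. At the Kaede-red level, 27.5 reads of Ccl22 would have been counted over the Kaede-green libraries. Ccl22 was at least 9.16-fold higher in Kaede-red cells over both times, at least 3.65-fold at 24h and at least 5.35-fold at 72h, each with the Kaede-green group set at 3 counts. It rose in Kaede-red cells, with edgeR adjusted p-values of 0.000422 for both times, 0.0406 for 24h and 0.00597 for 72h. The 24h call was lost without MG24 replicate 1, 2, 3 or 4 (adjusted p = 0.0750, 0.0773, 0.114 and 0.0689) and without MR24 replicate 1 (adjusted p = 0.132). Without MR72 replicate 1 or MR72 replicate 4, Ccl22 no longer passed the filter and was not tested. Ccl17 had no read in a Kaede-green library either, but its Kaede-red reads were 1, 0, 0 and 2 at 24h and 0, 2, 0 and 10 at 72h. At that level only 2.30 Kaede-green reads would have been counted, or 3.98 with depth outside Rn45s. A lower Kaede-green level of Ccl17 could thus hardly have been seen at this depth.

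Il12b encodes the p40 subunit and lies on chromosome 11 from 44400063 to 44414033, on the plus strand. Its only Kaede-green reads were 2 in MG24 replicate 2. The MR24 libraries had 22, 10, 3 and 30 reads, and the MR72 libraries had 38, 37, 0 and 39 reads. The groups overlapped at both times, since MR72 replicate 3 had none and the 0.817 CPM of MG24 replicate 2 lay above the 0.543 CPM of MR24 replicate 3. Kaede-red cells held 1.40 ± 0.666 CPM at 24h and 0.808 ± 0.612 CPM at 72h (SD, n = 4). The summed reads put Il12b 13.7-fold higher in Kaede-red cells over both times (exact interval 3.75 to 114), 8.48-fold higher at 24h (2.25 to 71.5), and at least 4.45-fold higher at 72h with the Kaede-green group set at 3 counts. Il12b rose over both times, with an edgeR adjusted p of 0.00244, and at 72h alone (adjusted p = 0.0182). It was not called at 24h, where the adjusted p was 0.116, but was when scaled by counts outside Rn45s (3.72, adjusted p = 0.00616). Without MG24 replicate 2, which leaves the Kaede-green cells with no read, the adjusted p at 24h was 0.0508. The 72h call was lost without MG72 replicate 2 (adjusted p = 0.0501) or MG72 replicate 3 (adjusted p = 0.0547). The subunits that pair with p40 were almost absent from both colours. Il12a, which completes IL-12, had 2 Kaede-green and 4 Kaede-red reads, and Il23a, which completes IL-23, had 4 and 11.

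The calls of Ccr7, Ccl22 and Il12b were lost when the Rn45s share of each library, which differs between the colours, was added to the fit. Over both times their adjusted p-values were then 0.154, 0.0755 and 0.154 by edgeR, and none of the 10 genes was called in any comparison with that term. The fitted differences stayed above 0, while their errors grew. For Ccr7 the log2 fold change was 3.75 (SE 1.28) with the term and 4.52 (SE 0.89) without it. For Il12b it was 4.28 (SE 1.46) and 4.62 (SE 1.08). These values average the 24h and 72h differences, and MG24 had no Ccr7 read and MG72 no Il12b read. Their size therefore depends on the prior count, and DESeq2 gave 3.13 for Ccr7 and 3.40 for Il12b without the term. When the Kaede-red libraries were thinned to the depth outside Rn45s of the median Kaede-green library, Ccr7 kept 11, 13, 6 and 4 reads at 24h and 20, 6, 3 and 11 reads at 72h. Ccr7 and Il12b were still called over both times in the thinned libraries (adjusted p = 0.000750 and 0.00334), and Ccl22, with 20, 2, 3 and 4 reads at 24h and 13, 4, 4 and 6 at 72h, no longer passed the filter.

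Fscn1 bundles actin in the dendrites of mature dendritic cells and is also made by other motile cells. It lies on chromosome 5 from 142960343 to 142973185, on the plus strand. The MG24 libraries had 15, 13, 19 and 12 reads and the MG72 libraries 28, 23, 34 and 32, against 41, 27, 26 and 76 in the MR24 and 150, 177, 44 and 247 in the MR72 libraries. In CPM these were 8.36, 5.31, 4.85 and 4.90 in MG24, 10.2, 7.01, 8.26 and 8.30 in MG72, 3.59, 3.28, 4.71 and 4.90 in MR24, and 5.86, 4.45, 6.64 and 5.19 in MR72. On this scale every Kaede-green library lay above every Kaede-red one at 72h, as for 9.52% of all genes tested, and the groups overlapped at 24h. Fscn1 fell in Kaede-red cells by 0.54 on the log2 scale over both times (SE 0.20, edgeR adjusted p = 0.0494) with TMM scaling, but its log2 fold change was 0.22 when scaled by counts outside Rn45s (adjusted p = 0.343) and -0.34 when Lars2 and Mir6236 were set aside too (adjusted p = 0.217). The call was kept with DESeq2 (-0.57, adjusted p = 0.0152) and with RLE factors (-0.57, adjusted p = 0.0389), and without MG24 replicate 3 or 4, MG72 replicate 2, MR24 replicate 4 or MR72 replicate 3. It was lost without any 1 of the other 11 libraries, namely MG24 replicates 1 and 2, MG72 replicates 1, 3 and 4, MR24 replicates 1, 2 and 3, and MR72 replicates 1, 2 and 4 (log2 fold change -0.56 to -0.46, adjusted p = 0.0567 to 0.115). By time, the log2 fold change was -0.47 at 24h (SE 0.30, adjusted p = 0.398) and -0.62 at 72h (SE 0.26, adjusted p = 0.101), and 0.43 and 0.019 when scaled by counts outside Rn45s.

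The sequences around the start sites of the genes of maturation that were called are shown because the genes ran from Ccl22, with no Kaede-green read, to Fscn1, with reads in every library. They run from 250 bases before to 50 bases after the RefSeq start (GRCm38.p6), and 9 of the 10 genes had an entry, with none for Ccr7. Capitals mark matches on either strand to a loose form of the NF-kB site (3 G, any 4 bases, then TCC) and to TATAAA, the TATA box. Only exact matches were searched, so lower case does not show that a variant of either site is absent. The Ccl22 window is chr8:94745434-94745733, that of Il12b chr11:44399813-44400112 and that of Fscn1 chr5:142960105-142960404, all on the plus strand.
Ccl22: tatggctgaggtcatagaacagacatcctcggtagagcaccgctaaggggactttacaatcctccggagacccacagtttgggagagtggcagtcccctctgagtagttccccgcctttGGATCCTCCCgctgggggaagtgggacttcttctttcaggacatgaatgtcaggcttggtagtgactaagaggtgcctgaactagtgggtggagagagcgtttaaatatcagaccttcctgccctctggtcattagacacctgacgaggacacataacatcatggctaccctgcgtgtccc
Il12b: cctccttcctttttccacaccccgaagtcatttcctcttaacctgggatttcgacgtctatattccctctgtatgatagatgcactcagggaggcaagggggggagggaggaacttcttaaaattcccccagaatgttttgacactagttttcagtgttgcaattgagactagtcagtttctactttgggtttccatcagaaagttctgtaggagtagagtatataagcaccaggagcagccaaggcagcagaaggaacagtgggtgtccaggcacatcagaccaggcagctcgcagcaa
Fscn1: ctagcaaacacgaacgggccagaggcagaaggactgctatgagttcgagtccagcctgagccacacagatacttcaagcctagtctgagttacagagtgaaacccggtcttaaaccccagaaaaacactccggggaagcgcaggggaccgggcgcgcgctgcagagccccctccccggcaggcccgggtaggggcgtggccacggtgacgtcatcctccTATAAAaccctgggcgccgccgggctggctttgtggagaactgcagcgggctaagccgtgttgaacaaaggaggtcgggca
The match in Ccl22 began 131 bases before the start, on the minus strand, and that in Fscn1 31 bases before it. In all, 8 motifs were searched in the 9 windows, and these 2 were picked for display after their matches were seen. The loose NF-kB form was found in Ccl22 alone among the 9 and in 19.2% of 32851 promoters of this length. TATAAA was found in Fscn1, Clec9a, Cd209a and Xcr1 and in 13.6% of promoters. TGANTCA, the AP-1 site, was found in Zbtb46 and in 7.81% of promoters. The other 5 (4 further NF-kB forms, and GAGGAAGT, a PU.1 site) had no match in the 9 windows and were found in 0.320 to 4.79% of promoters. The NF-kB forms overlap one another in part. For some of the 4 further forms, a window with a match also holds the loose form, and for others it need not.

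Flt3 and Zbtb46 define the conventional lineage. Flt3, the receptor kinase, lies on chromosome 5 from 147330741 to 147400489 on the minus strand, within which Gm26597 lies on the plus strand. It had 0, 1, 0 and 0 reads in MG24, 0, 0, 3 and 2 in MG72, 9, 3, 1 and 0 in MR24 and 34, 15, 1 and 27 in MR72. The groups overlapped at both times, although 7 of 8 Kaede-red and 3 of 8 Kaede-green libraries had a read. The 6 Kaede-green reads compared with 13.8 that the Kaede-red level would have given, a ratio of 2.30 (exact interval 1.02 to 6.44, counting error only). In a fit without the filter, where 10.2% of 21040 genes were called, Flt3 was not called over both times (log2 fold change 1.40, edgeR adjusted p = 0.471). Zbtb46, on chromosome 2 from 181387762 to 181459426 on the minus strand, had 0, 2, 0 and 3 reads in MG24, 0, 0, 2 and 4 in MG72, 4, 0, 1 and 4 in MR24 and 2, 15, 0 and 27 in MR72. Its groups overlapped throughout. The 11 Kaede-green reads compared with 8.14 at the Kaede-red level (ratio 0.740, exact interval 0.382 to 1.57), and with 14.1 when depth was taken from counts outside Rn45s, so that its direction turned with the scale.

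Xcr1, on chromosome 9 from 123852315 to 123862029 on the minus strand, had no Kaede-green read and 13 Kaede-red reads in 5 libraries. Clec9a, on chromosome 6 from 129408862 to 129424763 on the plus strand, had 2 Kaede-green and 15 Kaede-red reads, and its span is shared in part by Clec1b and Gm43914 on the same strand. At the Kaede-red level, 2.00 Kaede-green reads of Xcr1 and 2.30 of Clec9a would have been counted, or 3.45 and 3.98 with depth outside Rn45s. A lower Kaede-green level of either gene could thus hardly have been seen at this depth. Cd209a, on chromosome 8 from 3743397 to 3748984 on the minus strand, was the gene of this kind with reads in most libraries. It had 7, 0, 8 and 0 reads in MG24, 7, 4, 4 and 5 in MG72, 20, 5, 5 and 14 in MR24 and 5, 46, 14 and 78 in MR72. In CPM the Kaede-green libraries ranged from 0 to 3.90 and the Kaede-red ones from 0.195 to 2.11, and the groups overlapped at both times. The log2 fold change of Cd209a over both times was -0.34 (SE 0.53, edgeR adjusted p = 0.704) with TMM scaling, 0.46 when scaled by counts outside Rn45s, and 0.037 with TMM scaling without MG24 replicate 1, the library with the highest level. The 24h value was -0.42 (adjusted p = 0.820), or 0.35 without MG24 replicate 1. The 72h value was -0.27 (adjusted p = 0.852), or 0.068 without MG72 replicate 1 and 0.12 without MR72 replicate 1.

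**Figure D2:**
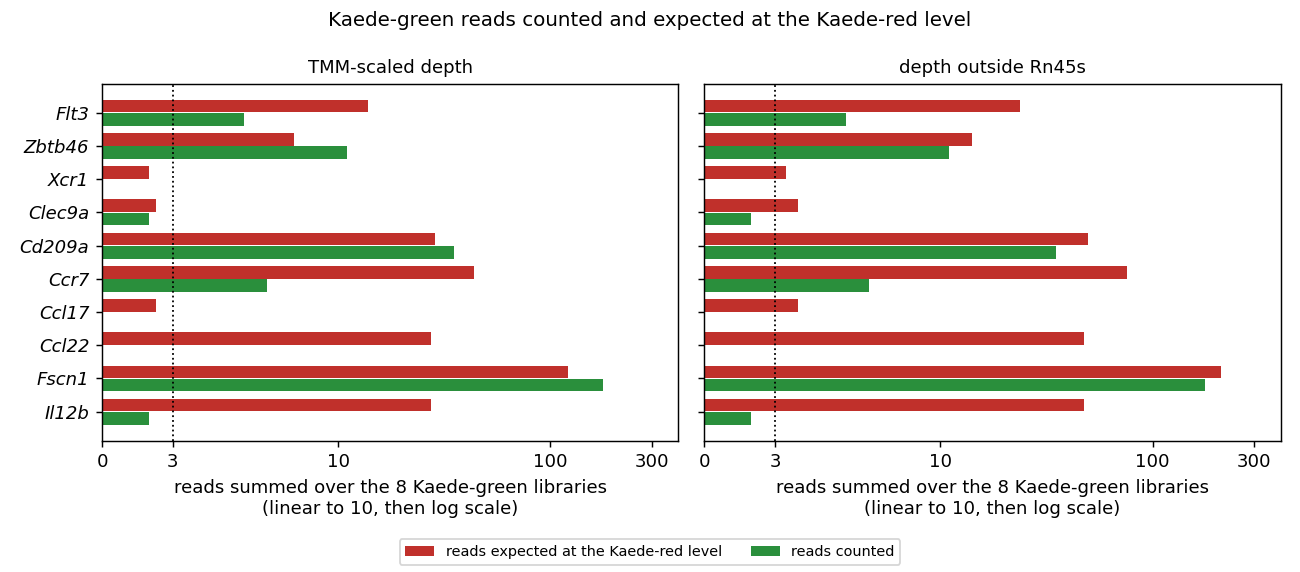
Reads of each gene summed over the 8 Kaede-green libraries (green bars) and the number expected there at the Kaede-red level (red bars), with depth taken after TMM scaling (left) or from counts outside Rn45s (right); the axis is linear to 10 and logarithmic above, and the dotted line marks 3 reads. Ccr7, Ccl22 and Il12b fall short of the expected number on both scales, whereas Fscn1, Cd209a and Zbtb46 change sides between the scales and Xcr1, Clec9a and Ccl17 have under 4 expected reads on both.

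None of the 5 tested genes was called between the times within a colour. In Kaede-red cells, where 8.67% of all genes tested were called between 24h and 72h by edgeR, the log2 fold changes were 0.08 for Ccr7 (SE 0.51), 0.24 for Ccl22 (SE 0.60), -0.72 for Il12b (SE 0.62), 0.40 for Fscn1 (SE 0.25) and 0.20 for Cd209a (SE 0.65), with adjusted p-values from 0.361 to 0.952. The sign of Ccr7 turned without MR24 replicate 3 or 4 or MR72 replicate 1 (-0.029, -0.095 and -0.15), and that of Cd209a without MR72 replicate 3 or 4 (-0.050 and -0.0082). In Kaede-green cells no gene was called (0.0% of those tested, with 835 genes at an unadjusted p under 0.05, and 13 called by DESeq2). Fscn1 had 5.85 ± 1.68 CPM at 24h and 8.44 ± 1.32 CPM at 72h (SD, n = 4), a log2 fold change of 0.56 (SE 0.30, adjusted p = 0.629). Ccr7, with 0 reads at 24h and 7 at 72h, had an adjusted p of 0.471. Whether the difference between the colours changed with time was tested by the interaction, in which 0.767% of all genes were called. None of the 5 genes was, with adjusted p-values of 0.255 for Ccr7, 0.897 for Fscn1 and 0.965 for Cd209a. A fitted change is not given for Ccl22 and Il12b, whose 0 and 2 Kaede-green reads leave it to the prior count.

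Other genes of the dendritic cell programme were taken from 6 lists of known markers, which held none of the 10. Which of the sorted cells made the RNA of these genes was not tested. Of 12 further genes of conventional dendritic cells, 7 were tested, and 3 rose and none fell in Kaede-red cells over both times, with a median log2 fold change of 0.87 against 0.06 over all genes tested, of which 9.96% rose and 10.3% fell. The 3 that rose by edgeR were the peptidase Anpep (1.61, SE 0.30, adjusted p = 0.000143), the integrin Itgax, which encodes CD11c (1.03, SE 0.18, adjusted p = 5.23e-05), and the receptor P2ry10 (1.00, SE 0.31, adjusted p = 0.0206). The P2ry10 call was lost without MG72 replicate 3 or MR72 replicate 4 (adjusted p = 0.0533 and 0.0548). Itgax is also made by macrophages, and its level was 7.94 ± 1.06 CPM in MG24, 13.1 ± 3.71 in MG72, 14.2 ± 3.58 in MR24 and 30.2 ± 7.71 CPM in MR72 (SD, n = 4). Traf1, an adaptor of TNF receptors and the other abundant gene of the list, had a log2 fold change of 0.00 (SE 0.23, adjusted p = 0.994), which was -0.028 with RLE factors and 0.77 when scaled by counts outside Rn45s (adjusted p = 0.00714).

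Of 14 genes linked to type 1 dendritic cells, 10 were tested, and 5 rose and none fell over both times, with a median log2 fold change of 0.58. The largest rises were those of Id2, an inhibitor of transcription factors needed for this lineage (1.16, SE 0.18, adjusted p = 1.11e-05), the small GTPase gene Rab7b (0.86, SE 0.17, adjusted p = 0.000237) and the lysosomal amidase Naaa (0.69, SE 0.16, adjusted p = 0.00142). The interferon-inducible gene Ifi205 rose by 0.57 (SE 0.15, adjusted p = 0.00714), and the lysosomal thioesterase Ppt1, with 0.37 (SE 0.16), was not called (adjusted p = 0.0960). It was called with no filter (adjusted p = 0.0319) and with depth outside Rn45s (1.16, adjusted p = 1.02e-06), also with Lars2 and Mir6236 set aside (0.58, adjusted p = 0.00561). Wdfy4, needed for cross-presentation, rose by 0.53 (adjusted p = 0.0193). Batf3, the factor that type 1 cells require, had 35 Kaede-green and 179 Kaede-red reads and a log2 fold change of -0.67 (adjusted p = 0.329), or 0.13 when scaled by counts outside Rn45s (adjusted p = 0.817). Wdfy4 and Batf3 were singled out after their values were seen. Of 12 genes linked to type 2 dendritic cells, 7 were tested, and 4 rose and none fell, with a median log2 fold change of 0.50. These were the lectins Mgl2 (2.10, SE 0.49, adjusted p = 0.00203) and Clec10a (1.54, SE 0.41, adjusted p = 0.00659), the inhibitory receptor Sirpa (1.23, SE 0.15, adjusted p = 2.17e-07) and the receptor Notch2 (0.48, SE 0.14, adjusted p = 0.0127). Mgl2, Clec10a and Sirpa are also made by macrophages.

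Genes of mature dendritic cells outside the 10 went both ways. Of 31 such genes, 23 were tested, and 6 rose, 2 fell and 15 were not called over both times, with a median log2 fold change of 0.14. These counts depend on the scale. With depth outside Rn45s, where 5891 of all genes rose, these 15 were called higher except Cd80, Pdcd1lg2 and Stat4. Only Il15 and Il15ra were called lower there. The largest rises were those of the chemokine Cxcl16 (1.59, SE 0.19, adjusted p = 2.42e-07), the GTPase regulator Tbc1d4 (1.35, SE 0.39, adjusted p = 0.0120) and the NF-kB subunit Relb (1.04, SE 0.32, adjusted p = 0.0181). Cxcl16, which binds Cxcr6 on T cells, had 19.0 ± 12.6 CPM in MG24, 34.6 ± 6.95 in MG72, 78.7 ± 13.7 in MR24 and 75.4 ± 4.90 CPM in MR72. By flow cytometry, the study found high CXCL16 protein in its resident-like macrophages and in monocyte-derived macrophages with MHC-II. The Relb call was lost without MG24 replicate 3 (adjusted p = 0.0686) or MR24 replicate 2 (adjusted p = 0.0503). The genes that fell were the cytokine Il15 (-1.71, SE 0.17, adjusted p = 1.27e-08), and its receptor chain Il15ra (-1.35, SE 0.21, adjusted p = 9.71e-06). Both were lower in Kaede-red cells on each scale, with log2 fold changes of -0.93 and -0.57 when scaled by counts outside Rn45s. Cd274, which encodes PD-L1, had 45.3 ± 7.10 CPM in MG24, 36.3 ± 6.53 in MG72, 43.6 ± 4.41 in MR24 and 45.2 ± 11.2 CPM in MR72 (0.14, SE 0.14, adjusted p = 0.533), and it was called when scaled by counts outside Rn45s (0.92, adjusted p = 2.79e-05).

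Of 10 genes of plasmacytoid dendritic cells, which secrete type I interferon, only 3 had enough reads to be tested, and none was called. Siglech, their surface lectin, had no Kaede-green and 2 Kaede-red reads. Irf7 and Bst2, which interferon induces in many cells, had log2 fold changes of -0.044 (adjusted p = 0.873) and -0.15 (adjusted p = 0.545), both above 0 and called when scaled by counts outside Rn45s (0.74, adjusted p = 9.31e-05, and 0.62, adjusted p = 0.000981). Of 10 ligands, receptors and cytokine partners of the genes described, 4 were tested and none was called over both times. Flt3l, the ligand of Flt3, had 15 Kaede-green and 125 Kaede-red reads (0.67, adjusted p = 0.497). Ebi3 and Il27, the subunits of IL-27, had log2 fold changes of 1.25 (SE 0.46, adjusted p = 0.0535) and -0.66 (SE 0.43, adjusted p = 0.301), the latter 0.12 when scaled by counts outside Rn45s. Ebi3 was called at 72h (1.77, SE 0.62, adjusted p = 0.0448), and over both times without MG24 replicate 3, MG72 replicate 2 or MR24 replicate 2 or 4. Over both times it was also called with DESeq2 (adjusted p = 0.0330), no filter (0.0223), depth outside Rn45s (0.000448) and depth that also set aside Lars2 and Mir6236 (0.0179). Xcl1, the ligand of Xcr1, and Ccr4, the receptor of Ccl17 and Ccl22, had no Kaede-green and 36 and 9 Kaede-red reads. As for Xcr1, a lower Kaede-green level of Ccr4 or Siglech could hardly have been seen at this depth.

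The rule for naming list genes gave 16 that were called over both times, which do not include Wdfy4. Of these 16, Id2 (1.46, adjusted p = 0.00342), Cxcl16 (1.16, adjusted p = 0.0305) and Il15 (-1.29, adjusted p = 0.0183) were still called with the Rn45s share in the fit. The other 13 were not, with log2 fold changes such as 0.95 for Anpep (adjusted p = 0.407), 0.55 for Itgax (adjusted p = 0.484), 0.77 for Sirpa (adjusted p = 0.0739), 0.41 for Relb (adjusted p = 0.864) and -1.26 for Il15ra (adjusted p = 0.0769).

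Taken by time with TMM scaling, the lists on conventional, type 1 and type 2 cells had more calls at 72h than at 24h, which was not tested as a difference. At 24h, where 3.2% of all genes rose and 4.3% fell in Kaede-red cells, 1 gene of each of these lists rose and none fell, and at 72h, where 8.07% rose and 8.76% fell, 2, 5 and 4 rose and none fell. The genes of mature dendritic cells were again divided, with 2 rising and 2 falling at 24h and 4 rising and 3 falling at 72h. From 24h to 72h within Kaede-red cells, where 4.91% of all genes rose and 3.76% fell, 1 gene of the conventional list rose, 2 of the type 1 list rose and 1 fell, and 2 of the type 2 list rose. None of the mature list was called in that comparison. In the interaction, where 0.436% of all genes were called above and 0.332% below 0, 1 gene each of the type 1 and type 2 lists was called above 0.

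**Figure D3:**
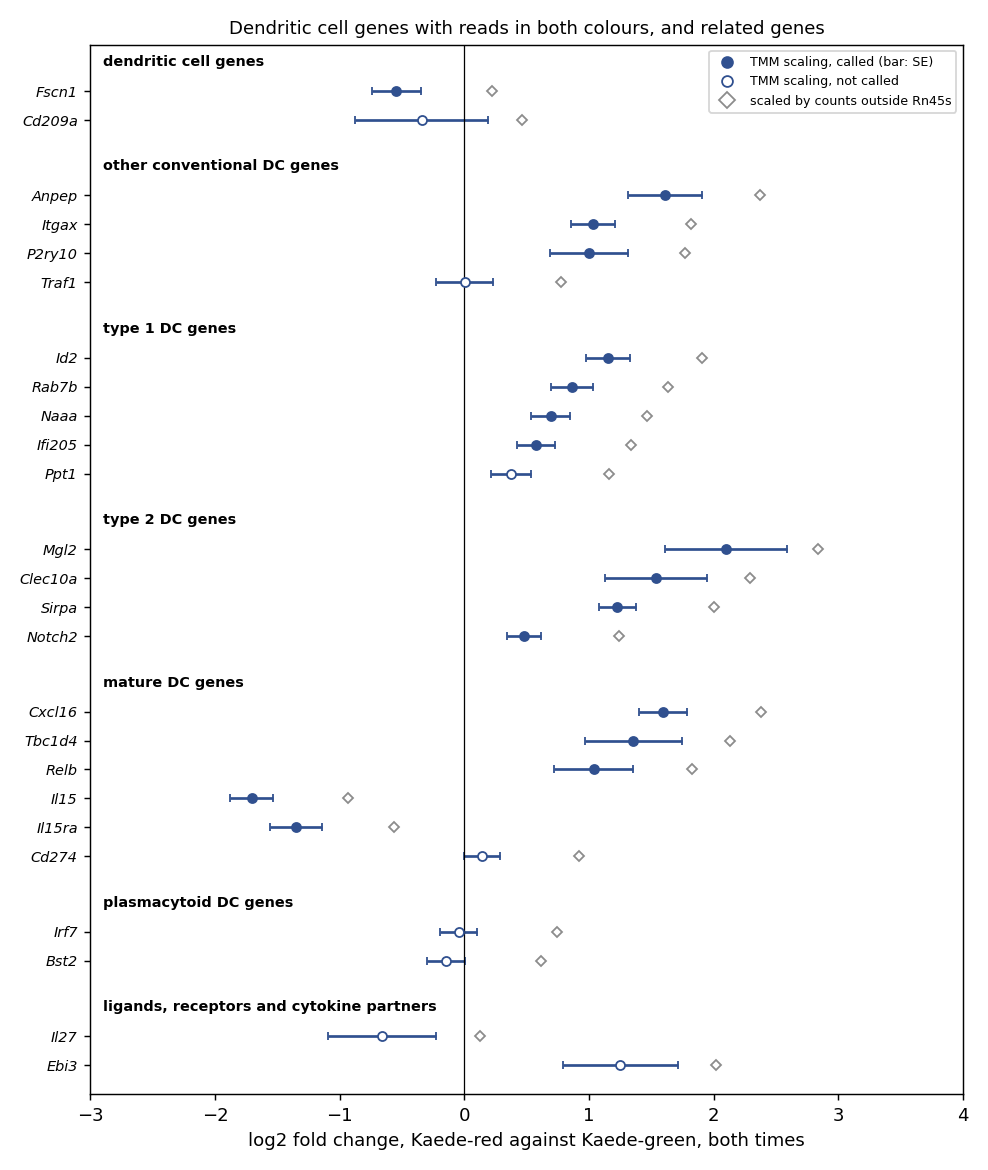
Log2 fold change of Kaede-red over Kaede-green cells, both times, for Fscn1, Cd209a and the named genes of the 6 related lists (circles with SE as bars under TMM scaling, filled where the adjusted p was under 0.05; diamonds with depth taken from counts outside Rn45s). Il15 and Il15ra lie below 0 on both scales, and Fscn1 and Cd209a lie below 0 by TMM scaling and above it by the other.

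The summed markers of other cells that the gate could hold were compared as ranges over libraries, with no test. They are given with TMM scaling alone. Depth outside Rn45s would raise the Kaede-red sums relative to the Kaede-green ones, so the order of the colours can depend on the scale. The gate's own genes, Itgam (CD11b) and Ptprc (CD45), summed to 148 to 203 CPM in the Kaede-green libraries and to 133 to 312 CPM in the Kaede-red ones. The 5 monocyte genes (Ly6c2, Ccr2, Plac8, Chil3 and Vcan) summed to 667 to 1549 CPM in the Kaede-green libraries and to 445 to 689 CPM in the Kaede-red ones. Macrophage genes summed to 744 to 1956 CPM in MG24, 925 to 1336 in MG72, 538 to 928 in MR24 and 888 to 1189 in MR72. Fibroblast genes, with 5 of 5 found, summed to 40.3 to 52.2 CPM in Kaede-green at 24h, 45.4 to 49.8 at 72h, 19.6 to 37.3 in Kaede-red at 24h and 11.9 to 19.1 CPM at 72h. Endothelial genes (3 of 3 found) ran the other way, from 9.75 to 19.0 CPM in Kaede-green to 17.7 to 36.6 CPM in Kaede-red libraries. Genes of T and NK cells (7 of 8 in the files) summed to at most 5.96 CPM in the Kaede-green libraries and 7.93 CPM in the Kaede-red ones, with Cd3e and Cd3d at 0 in MG72. Neutrophil genes (5 of 6 in the files) summed to 5.72 to 18.2 CPM, B cell genes (Cd79a, Cd79b and Ms4a1) to at most 2.45 CPM with Ms4a1 at 0 in MG24, and eosinophil genes to at most 0.729 CPM. Basophil and mast cell genes had no read in Kaede-green libraries and summed to at most 0.774 CPM in Kaede-red ones. For comparison, 3 counts in a Kaede-green library stand for 0.729 to 1.67 CPM. Tumour epithelial genes summed to at most 2.86 CPM, reached in MG24, with all 4 at 0 in MG72, and erythroid genes to at most 11.04 CPM. The part of these cells, of depth and of the Rn45s share in the differences of Ccr7, Ccl22, Il12b and Fscn1 was not tested.

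The variation of the 5 tested genes within groups is given as a description. Over the deviations of the 16 libraries from their group means on the log2 CPM scale, the largest Pearson correlation between members was that of Cd209a with Fscn1 (r = 0.406) and the lowest that of Cd209a with Il12b (r = -0.484). Ccr7 had r = 0.347 with Il12b, 0.231 with Ccl22 and -0.452 with Fscn1. Of 1388 other genes with a mean log2 CPM of at least 4, those most like Ccr7 in these deviations were AI607873 (r = 0.788), C1qc (0.787) and Arf3 (0.775). Those most like Ccl22 were Man2a1 (0.667), Tkt (0.616) and Plekho2 (0.612), and among those most like Il12b were Ncoa3 (0.795) and Wipf1 (0.747). Fscn1 was most like Birc6 (0.696), Srp54a (0.641) and Atp2a2 (0.640), and Cd209a was most like Rpl15 (0.746), Rpl7a (0.721) and Cwc15 (0.721). These values describe the 16 libraries, which differ in depth and in their Rn45s share, and Ccr7, Ccl22 and Il12b had no read in most of the Kaede-green ones.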

How the data were processed

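Bulk RNA-seq of sorted CD11b+ tumour cells was available as read counts per gene for 16 libraries, 4 per group, made with a stranded total RNA kit. The authors deposited unnormalised counts of 24421 genes. Per the submitters' processing notes, Trim Galore, FastQC, HISAT2 and featureCounts were used with mm10, with versions and the strand setting of the counting not given in the sources used here, so reads of antisense or overlapping genes (those named with Flt3 and Clec9a, and Gm22708 with Zbtb46) may be shared. Counts were analysed in R 4.3.3 with edgeR 4.0.16 (filterByExpr, minimum count 10; TMM; 1 quasi-likelihood fit of all 16 libraries with a mean per group; Benjamini-Hochberg adjustment over 9642 genes; calls at an adjusted p under 0.05). Log2 CPM used a prior count of 2. Library depth ranged from 3216858 to 15423080 counts. Where a group had no read, its floor was 3 counts over the group, and ratios of summed reads have exact 95% intervals. The fits were tested on simulated data, and no 2 libraries of a group were copies of one another. Alternatives were DESeq2 1.42.0, RLE factors, library sizes outside Rn45s, no filter, only the groups compared, a replicate block, the Rn45s share as a covariate, thinned Kaede-red libraries and leaving out each library. Sizes that also set aside Lars2 and Mir6236 were added after seeing the data. The genes, the lists, the motifs and the tests were chosen with earlier results of these data known. All 10 genes were named. Of each related list, the text names the 3 largest rises and falls among genes called over both times and the 2 most abundant tested genes (among those not called, Cd274, Ppt1 and Traf1 are given as examples). A few other genes, tested (such as Wdfy4, Batf3 and Flt3l) or not, were chosen after their values were seen. A few marker genes are not reported here and were left out of the marker sums.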

Additional observations from a re-analysis of the deposited data

Results flagged for a closer look

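Each of the 10 genes was examined for a library far from the other 3 of its group, by Dixon's ratio of the gap to the nearest library over the whole range, against its 95% critical value for 4 libraries. Of 40 groups of values, 32 held a read and 7 passed it. A group with reads in only 1 library has a ratio of 1 at any count. The nominal rate of 1 in 20 therefore does not apply, and the 7 were not set against it. In 4 of these a single read stood alone in a group otherwise at 0. They were Flt3 in MG24 replicate 2, Clec9a in MG24 replicate 2, Clec9a in MG72 replicate 4 and Clec9a in MR24 replicate 3, each with a ratio of 1. Il12b in MG24 replicate 2 also had a ratio of 1, from the 2 reads that are its only Kaede-green reads. Ccl22 in MR24 replicate 1, with 25 reads and 2.19 CPM, had a ratio of 0.907. Fscn1 in MG24 replicate 1, with 15 reads and 8.36 CPM, had a ratio of 0.868.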

How the results depend on the processing

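Over both times, Ccr7, Ccl22 and Il12b were called with DESeq2, RLE factors, both other library sizes, no filter and the replicate block, and Ccr7 and Il12b without any single library. The Rn45s share as a covariate left 0 of the 10 genes called in any of the 3 comparisons between the colours. Log2 fold changes over both times were then 3.75 for Ccr7 and 4.28 for Il12b, against 4.52 and 4.62. Each averages in a time whose Kaede-green group had no read, so its size depends on the prior count. Thinning left 2 called over both times and 1 at each time alone. At 24h, 0 were called when only the groups compared were fitted, where Cd209a, Ccr7, Ccl22 and Il12b failed the filter. At 72h DESeq2 called 1, Fscn1, and gave Ccr7, Ccl22 and Il12b no adjusted p. Over all genes, calls between the colours (both times, then 24h, then 72h) were 6124, 4651 and 3623 with depth outside Rn45s and 156, 206 and 102 with the covariate, against 1950, 724 and 1623. Between times in Kaede-green cells DESeq2 called 13 and no filter 37, against 0. In Kaede-red cells DESeq2 called 1263, only the groups compared 1604 and the covariate 110, against 836. For the interaction DESeq2 called 321, no filter 216 and the covariate 34, against 74.

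Log2 fold changes turned with depth outside Rn45s for Cd209a (0.46 over both times, 0.51 at 24h, 0.41 at 72h and -0.10 for the interaction), Fscn1 (0.22, 0.43 and 0.019 for the same 3 differences), Irf7 (0.74), Bst2 (0.62) and Il27 (0.12), and, with Lars2 and Mir6236 set aside too, for Irf7 (0.16) and Bst2 (0.061). With the covariate they turned for Traf1 (-0.27), Ifi205 (-0.074), Bst2 (0.056), Cd209a between times in Kaede-green (-0.036) and Ccr7 between times in Kaede-red cells (-0.26). Traf1 was also below 0 by DESeq2 (-0.025), RLE factors (-0.028) and the block (-0.037), Irf7 above 0 with no filter (0.075) and the Fscn1 interaction above 0 after thinning (0.21). The cause was not tested. Fscn1 over both times (-0.54) lost its call with no filter (-0.43, adjusted p = 0.298), the block (-0.54, 0.0577), the covariate (-0.22, 0.898) and thinning (-0.55, 0.0776), and kept it with DESeq2 and RLE factors.

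Leaving out 1 library gave 2 to 4 of the 10 genes called over both times, 1 to 2 at 24h, 1 to 3 at 72h and 0 in the other comparisons. Over all genes the calls were 1583 to 2087, 502 to 769, 1148 to 1910, 0 to 2 between times in Kaede-green, 287 to 1109 in Kaede-red cells (287 without MR72 replicate 1) and 2 to 155 for the interaction (2 without MR24 replicate 3, 155 without MR24 replicate 1). Cd209a ranged from -0.56 to 0.037 over both times, -0.82 to 0.35 at 24h, -0.51 to 0.12 at 72h, -0.37 to 0.80 between times in Kaede-green and -0.050 to 0.60 in Kaede-red cells, and -0.62 to 0.56 for the interaction. Ccr7 between times in Kaede-red cells ranged from -0.15 to 0.32, Traf1 from -0.14 to 0.10 and Irf7 from -0.13 to 0.066.

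Same-numbered libraries did not stand out as pairs, with correlations of their deviations from -0.018 to 0.153. The libraries also differ in depth and Rn45s share, so this cannot tell whether a number marks a shared tumour. With the replicate block, 1 of the 10 genes was called at 24h (Ccr7, with Ccl22 at an adjusted p of 0.0515) against 2 without it. At 24h only replicates 1 and 4 correlated best with their own number.

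Low depth outside Rn45s in Kaede-green libraries limits what can be said of Xcr1, Clec9a and Ccl17.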
